A study of Mus musculus with 2 samples.

Results

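The regions described here are the 4 Hox clusters of the mouse and the DNA on both sides of them, as seen in a map of 5-hydroxymethylcytosine (5hmC). A peak belongs to a cluster if its midpoint lies in 1 of 4 windows of mouse build mm9, which are chr6:52100000-52220000 for Hoxa, chr11:96020000-96240000 for Hoxb, chr15:102750000-102870000 for Hoxc and chr2:74480000-74610000 for Hoxd. It belongs to a flank if its midpoint lies within 200 kb of a window's end. Of 121661 peaks in 2 deposited lists, 138 were members: 30 inside the clusters and 108 in the flanks. The rule uses positions only, not measured values.

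DNA from embryonic stem (ES) cells of the 129SvEv mouse was fragmented, pieces carrying biotin-tagged 5hmC were pulled down, and these were sequenced. One library came from cells kept for 24 h in 100 µM ascorbic acid (AA, vitamin C), the other from cells whose label names no incubation and which the series' design places without AA. All cells share strain and cell type, and nothing in the labels says how many cultures each library came from. DNA data hold no marker levels, so the cell type could not be checked.

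In both lists (2 of 2) the header carries the name of the opposite sample. They are called AA-labelled and no-AA-labelled after GEO's record, so every direction between them would be the opposite if the headers were true. The AA-labelled library had 11907082 kept tags (aligned reads, 1 per position) and 57827 peaks, the no-AA-labelled library 18398162 and 63834. Fragment lengths estimated by the caller were 229 and 165 bp, and median peak lengths over the whole lists were 1032 and 778 bp. Library, depth, fragment length and treatment cannot be told apart with 1 library per group. No difference between the lists has a replicate check.

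Hox genes encode homeodomain transcription factors that set the identity of body segments along the head-to-tail axis. They lie in tight clusters whose gene order matches the order in which they are switched on, from the low-numbered genes to the high-numbered ones. In ES cells the clusters are largely silent and are the textbook case of bivalent chromatin, with active and Polycomb marks side by side over CpG-rich DNA. 5hmC arises when Tet enzymes oxidise 5-methylcytosine, a reaction that ascorbic acid supports, so it can be found only where cytosine, mostly in CpG, had been methylated.

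The list of members names 38 Hox genes, 10 each in Hoxa and Hoxb and 9 each in Hoxc and Hoxd. In RefSeq's order along the chromosome (GRCm38.p6) the listed Hoxa genes run from Hoxa2 up to Hoxa13, with Evx1, a homeobox gene, next. The others run the opposite way: Hoxb13 to Hoxb1 with Skap1 next, Hoxc13 to Hoxc4 with Smug1 next, and Hoxd13 to Hoxd1 with Mtx2 next. No mm9 annotation was used here, so peaks are given by position and not by gene.

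The bases upstream of Hox start sites show the CpG that 5hmC could occupy. RefSeq's table held a promoter for 22 of the 38 genes. In the 250 bases before the start, these had a median of 12 CG dinucleotides (2 to 35) and an observed over expected CpG of 0.60, against 6 and 0.38 over the 27025 genes of the table. The motif searched was CG, which reads the same on both strands and is held by 22 of 22 Hox promoters and 91.7% of all. A G+C of at least 50% together with a ratio of at least 0.6 was met by 9 of the 22 (40.9%) and by 31.4% of all. No interval is given for this share, so no difference is drawn from it. Most of the 22 are Hoxa and Hoxd genes, and their values varied widely. The promoters of paralogue groups 4 and 9 in the table are shown because these genes recur in several clusters, with each CG in capitals, from 5′ to 3′ on the gene's strand:
Hoxb4: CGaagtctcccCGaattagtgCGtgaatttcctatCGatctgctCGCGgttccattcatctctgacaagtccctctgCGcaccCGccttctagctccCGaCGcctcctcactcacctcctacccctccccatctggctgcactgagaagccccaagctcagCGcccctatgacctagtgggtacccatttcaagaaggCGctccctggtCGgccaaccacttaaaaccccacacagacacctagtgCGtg
Hoxc4: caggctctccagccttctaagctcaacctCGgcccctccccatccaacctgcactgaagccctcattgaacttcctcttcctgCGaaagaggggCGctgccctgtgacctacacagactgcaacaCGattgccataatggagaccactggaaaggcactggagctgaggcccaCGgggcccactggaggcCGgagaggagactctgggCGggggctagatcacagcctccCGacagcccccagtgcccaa
Hoxd4: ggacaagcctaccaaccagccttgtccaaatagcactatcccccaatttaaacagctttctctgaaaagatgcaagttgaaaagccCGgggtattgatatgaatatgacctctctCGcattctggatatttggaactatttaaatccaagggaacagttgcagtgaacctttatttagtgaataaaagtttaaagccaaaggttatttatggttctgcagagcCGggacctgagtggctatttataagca
Hoxa9: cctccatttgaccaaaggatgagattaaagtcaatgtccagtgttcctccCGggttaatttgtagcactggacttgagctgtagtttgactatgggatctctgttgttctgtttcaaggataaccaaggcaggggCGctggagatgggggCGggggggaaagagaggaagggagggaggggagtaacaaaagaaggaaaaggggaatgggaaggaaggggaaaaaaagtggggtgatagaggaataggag
Hoxd9: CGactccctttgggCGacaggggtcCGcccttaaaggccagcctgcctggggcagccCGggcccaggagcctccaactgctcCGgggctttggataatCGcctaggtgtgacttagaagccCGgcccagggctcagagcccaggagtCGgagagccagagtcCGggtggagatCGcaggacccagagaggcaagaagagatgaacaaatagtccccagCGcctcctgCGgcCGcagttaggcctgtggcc
The upstream stretch of Hoxb4 held 14 CG and that of Hoxd9 13, against 8 for Hoxc4 and 3 each for Hoxd4 and Hoxa9. These are genome sequences of another build than the peaks, so whether a peak lies on any of them was not examined.

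The first comparison asked how densely the clusters and their flanks were enriched for 5hmC in each library. Both lists had peaks inside every cluster and in every flank. The AA-labelled list had 20 peaks inside the 590 kb of the clusters (95% Poisson interval 12.2 to 30.9), or 33.9 per Mb, and 60 in the 1600 kb of the flanks (45.8 to 77.2), or 37.5 per Mb. The no-AA-labelled list had 10 inside (4.80 to 18.4), or 16.9 per Mb, and 48 in the flanks (35.4 to 63.6), or 30.0 per Mb. Over the autosomes and chromosome X the lists had 21.9 and 24.2 peaks per Mb.

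Set against these genome values, the flanks were at 1.71 times (1.31 to 2.20) the genome density in the AA-labelled list and 1.24 times (0.914 to 1.64) in the other. The insides were at 1.55 times (0.945 to 2.39) and 0.701 times (0.336 to 1.29). Over the 4 clusters together, only the AA-labelled flanks had an interval that left out the genome density. These intervals take peaks as independent, but peaks were unevenly spread. Of 120-kb windows of the genome, 19.3% held no AA-labelled peak, and the quartiles were 1 and 4 peaks. The intervals leave out that unevenness, and the share of 200-kb windows with as many peaks as a flank is not given here. So no difference from the genome is drawn. Single clusters varied. The Hoxa flanks were at 2.05 times (1.22 to 3.25) in the AA-labelled list and 1.96 times (1.18 to 3.07) in the other, and the Hoxb flanks at 2.05 times (1.22 to 3.25) and 1.24 times (0.641 to 2.17). The Hoxc flanks were at 1.14 times (0.547 to 2.10) and 0.723 times (0.291 to 1.49), and the Hoxd flanks at 1.6 times (0.873 to 2.68) and 1.03 times (0.496 to 1.90). Inside over flanks, the density was 0.904 times (0.516 to 1.52) in the AA-labelled list and 0.565 times (0.255 to 1.13) in the no-AA-labelled list, and both intervals include 1. Peaks covered 4.65% of the cluster bases and 4.78% of the flank bases in the AA-labelled list. In the no-AA-labelled list they covered 1.4% and 2.86%, beside 2.61% and 2.16% of the genome in the 2 lists. On the log2 scale the covered share inside over flanks was -0.042 (-0.85 to 0.71) in the AA-labelled list and -1.03 (-2.18 to -0.033) in the no-AA-labelled list. These 2 intervals carry the counting error of peak numbers only and not the spread of peak lengths. They are thus too narrow for covered share, and the second is not read against 0. The log2 density of the same no-AA-labelled peaks was -0.82 (-1.97 to 0.18), which includes 0.

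**Figure D1:**
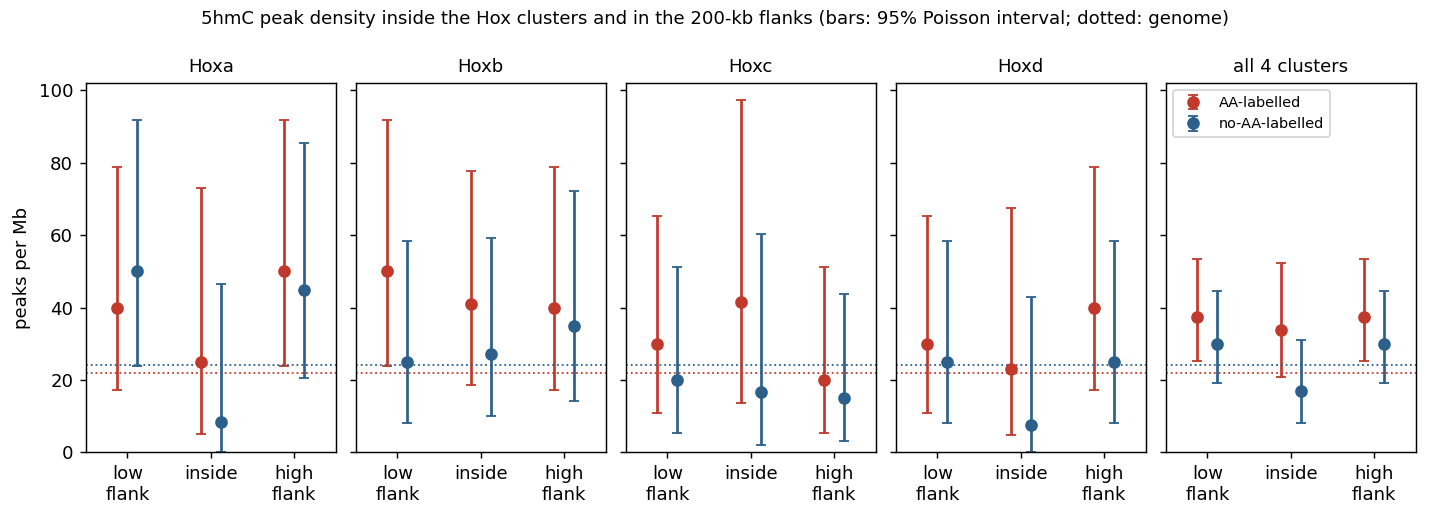
Peaks per Mb (vertical axis) in the low-coordinate flank, inside and in the high-coordinate flank of each cluster and of all 4 together, for the AA-labelled (red) and no-AA-labelled (blue) list. Bars are 95% Poisson intervals and dotted lines the genome values of 21.9 and 24.2 per Mb. Over all 4 clusters the no-AA-labelled value inside, 16.9 per Mb, lies below both of its flanks at 30.0, and the AA-labelled values are 33.9 and 37.5.

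The second comparison asked whether the lists differed in the number of peaks at the clusters. All 4 clusters held more AA-labelled than no-AA-labelled peaks, with 3 against 1 in Hoxa, 9 against 6 in Hoxb, 5 against 2 in Hoxc and 3 against 1 in Hoxd. Among windows of the same length across the genome that held any peak, the AA-labelled list had more in 30.1% at 120 kb, 30.4% at 130 kb and 30.6% at 220 kb. In the flanks 7 of 8 stretches had more AA-labelled peaks, beside 30.1% of 200-kb windows. The exception was the low flank of Hoxa, with 8 against 10.

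AA-labelled over no-AA-labelled, the ratio of peak numbers was 2.00 (0.894 to 4.78) inside and 1.25 (0.841 to 1.87) in the flanks, where the whole lists had 0.906 (0.896 to 0.916). The interval inside includes the ratio of the whole lists, close to its lower end. Excesses as large as those of the single clusters were not rare, being met by 13.7% of such windows for Hoxa, 9.55% for Hoxb, 5.89% for Hoxc and 14.1% for Hoxd. In the AA-labelled list, Hoxb and Hoxc lay above the upper quartile of windows of their length, at 9 against 7 and 5 against 4 peaks. Hoxa and Hoxd, and all clusters in the no-AA-labelled list, lay within the quartiles. The percentages that follow are over all windows, including those with no peak. Of windows of the same length, 68.4%, 87.6%, 88% and 65% had at most as many AA-labelled peaks as Hoxa, Hoxb, Hoxc and Hoxd, and 33.5%, 64.3%, 49.6% and 31.1% had at most as many no-AA-labelled peaks. In covered length the ratio inside was 3.32, at 27.4 against 8.25 kb, and 1.67 in the flanks. Without Hoxb, which held 15 of the 30 peaks inside, 11 AA-labelled and 4 no-AA-labelled peaks remained. With the longer list trimmed to the length of the shorter by p, they were 20 and 8.

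Distance from a cluster made little difference in the AA-labelled list. In steps of 50 kb out to 200 kb it had 45.0, 32.5, 32.5 and 40.0 peaks per Mb, and the no-AA-labelled list had 27.5, 27.5, 32.5 and 32.5. All these intervals overlap, and each step rests on 11 to 18 peaks.

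The third comparison took the peaks inside one by one. Fold enrichment is the authors' value against the background of the same library, and distances are from the low end of the window. In Hoxa, no peak was shared between the lists. The AA-labelled peaks were chr6:52119561-52120998 with 27 tags at 7.15-fold, chr6:52158927-52160386 with 50 tags at 5.21-fold and chr6:52169672-52171068 with 43 tags at 6.47-fold. The single no-AA-labelled peak, chr6:52150925-52151489, held 21 tags at 9.61-fold and ended 7.44 kb before the nearest AA-labelled one. The last AA-labelled peak lay 70.4 kb into the window, so neither list had a peak at the far end, where RefSeq's order puts the high-numbered genes such as Hoxa13, a gene of limb and genital development.

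Hoxb was the fullest cluster and the one where the lists had most in common, with 4 shared sites. Its strongest site was chr11:96109510-96110664, with 55 tags at 13.10-fold in the AA-labelled list and 42 tags at 8.66-fold in the other (chr11:96109700-96110620). The other shared sites were chr11:96087923-96089522 (40 and 54 tags), chr11:96099603-96101060 (36 and 26 tags) and chr11:96130318-96131622 (39 and 25 tags), given by their AA-labelled ends. These 4 sites fell within 68.7 to 111.0 kb of the low end, that is, in the middle part of the 220-kb window.

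The other Hoxb peaks were each in 1 list. The AA-labelled list alone had chr11:96031772-96033623 with 53 tags, chr11:96039757-96040395 with 13 tags and chr11:96056137-96057808 with 44 tags, all near the low end, where RefSeq's order has Hoxb13. It also had chr11:96124441-96126430, which lay among the shared sites and was the richest peak inside any cluster with 72 tags but only 4.48-fold, and chr11:96175113-96176248 with 28 tags. Peaks of the no-AA-labelled list alone were chr11:96078052-96079175 with 43 tags and chr11:96166876-96167495 with 20 tags.

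**Figure D2:**
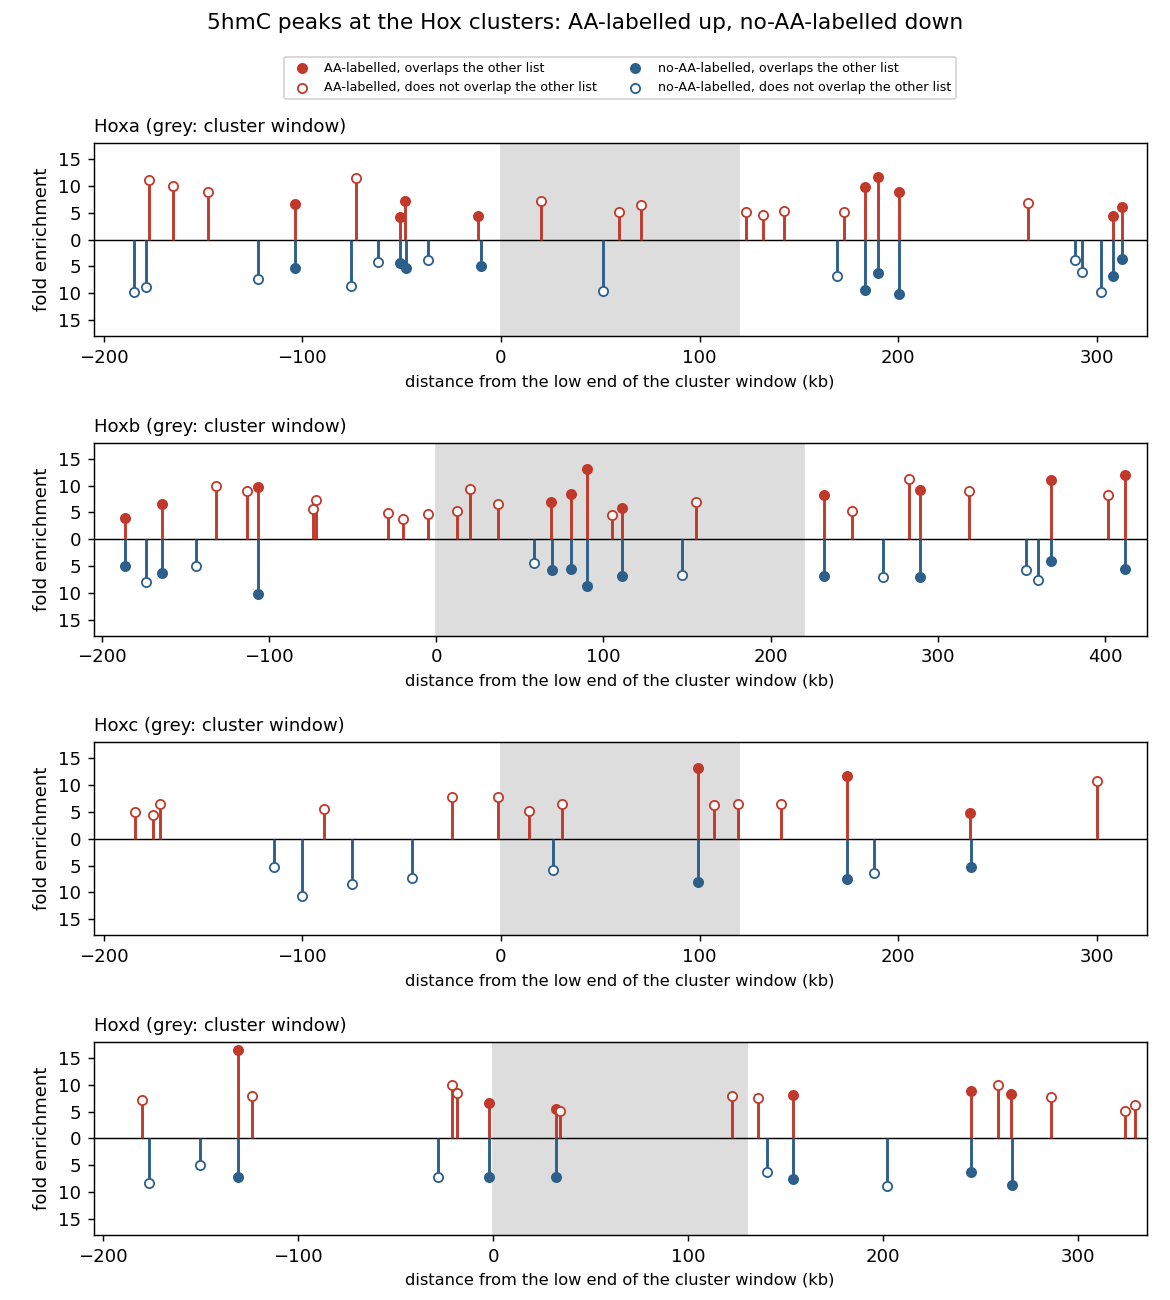
Every peak of both lists at the 4 clusters, by distance from the low end of the cluster window (horizontal axis, kb) and fold enrichment (vertical axis), with AA-labelled peaks drawn up in red and no-AA-labelled peaks drawn down in blue. Filled points overlap a peak of the other list, open points do not, and grey marks the window. In Hoxb, 4 filled pairs stand at 68.7 to 111.0 kb, and in Hoxc and Hoxd the middle is empty in both lists.

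In Hoxc the peaks sat at both ends. The shared site chr15:102848720-102850092 had the highest fold enrichment inside any cluster, 13.22-fold with 48 AA-labelled tags, against 14 tags at 8.00-fold in the no-AA-labelled list (chr15:102849014-102849546). It lay 99.4 kb into the window, toward the end where RefSeq's order has Hoxc4, a gene of the neck and upper trunk. The AA-labelled list alone had chr15:102763833-102764784 with 27 tags, chr15:102779775-102781518 with 49 tags, chr15:102856407-102857924 with 38 tags and chr15:102869035-102870098 with 27 tags. The other no-AA-labelled peak, chr15:102775497-102776483 with 27 tags, was 3.29 kb from an AA-labelled one.

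Hoxd had the fewest peaks for its length. Its shared site was chr2:74511775-74512978, with 34 AA-labelled tags at 5.52-fold and 13 no-AA-labelled tags at 7.12-fold (chr2:74511928-74512402), just above the cutoff in the latter with a score of 51.0 where 50 is the limit. Next to it lay the AA-labelled peak chr2:74513207-74514761 with 35 tags, only 0.805 kb from the no-AA-labelled peak but not overlapping it. The last was chr2:74601838-74602837 with 24 AA-labelled tags at 7.88-fold, near the end where RefSeq's order has Hoxd1.

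As a group, the AA-labelled peaks inside were long and rich in tags but low in fold enrichment. Their median length was 1417.5 bp (1155 to 1555 over peaks) against 1032 bp in the whole list, and 17 of 20 were longer than that. Their median count was 38.5 tags (28 to 48) against 27, while the median fold was 6.51 (5.52 to 7.15) against 7.86. A fold below the list's median was found in 15 of 20, beside 50% of all peaks. The AA-labelled flank peaks had medians of 33.5 tags (28 to 40), 1121 bp (988 to 1301) and 7.65-fold (6.57 to 8.36). A high tag count was thus not particular to the peaks inside. Tag density over the whole peak divided by fold is only a rough stand-in for the caller's local background. It was 1.19 times the list's median for the AA-labelled peaks inside and 1.14 times for those in the flanks. Because fold is its divisor, a low fold raises it by itself, so it is no separate measure of background. Median tag density alone was 2.28 inside against 2.22 in the whole list. The part of the local background in the low folds was not tested.

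The no-AA-labelled peaks inside looked like the rest of their list, with medians of 775 bp, 25.5 tags and 6.76-fold against 778 bp, 28 tags and 7.05-fold. Their tag density divided by fold was 0.971 times the list's median. Of the peaks inside, 4 of 20 AA-labelled and 2 of 10 no-AA-labelled ones had a p no higher than 1e-10, beside 22.9% and 18.4% of the lists. A fold of at least 10 was reached by 2 of 20 and 0 of 10, beside 21.7% and 10.4%, and the interval for 0 of 10 runs to 30.8%.

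The fourth comparison asked how many sites the lists had in common. Inside, 6 of 20 AA-labelled peaks were shared, or 30.0% (11.9% to 54.3%), beside 47.5% of the whole list, and 6 of 10 no-AA-labelled peaks (26.2% to 87.8%), beside 43.6%. In the flanks 23 of 60 AA-labelled peaks (38.3%, 26.1% to 51.8%) and 23 of 48 no-AA-labelled peaks (47.9%, 33.3% to 62.8%) were shared. These intervals include the shares of the whole lists. The low flank of Hoxc had 0 of 6 AA-labelled and 0 of 4 no-AA-labelled peaks shared, and the inside of Hoxa 0 of 3 and 0 of 1. Both were picked out after the values were seen.

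The 14 unshared AA-labelled peaks inside were not all at the edge of detection. Their scores ran from 54.6 to 99.9 with a median of 78.1, against a median of 71.5 for the whole list, and their counts from 13 to 72 tags. None of the 14 reached a p of at most 1e-10, beside 22.9% of all peaks of the list, shared or not. Values for the list's unshared peaks alone are not given here. The nearest no-AA-labelled peak was a median of 14 kb away, at 0.805 to 44.4 kb. A site missing from a list is one not called there, and its tags in that library are not in the lists.

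The fifth comparison asked whether tag density differed at shared sites. Tag density is the number of tags per kb of peak and per 1000000 kept tags of the library. All 6 pairs inside had the higher density on the AA-labelled side, as in 75.2% of the 26954 pairs of the lists. The median log2 ratio inside was 0.58 (0.08 to 1.04 over pairs), against 0.28 (0.09 to 0.55) for 23 flank pairs and 0.22 for all pairs. Both intervals include 0.22. Without scaling to depth these medians were -0.045 inside and -0.35 in the flanks.

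The highest pair inside was that of Hoxc, at a tag density of 2.94 against 1.43 and a log2 ratio of 1.04 (0.16 to 2.01), and it was over 2-fold, as were 1.47% of all pairs. The AA-labelled peak there was 1373 bp long and the no-AA-labelled one 533 bp. The strongest Hoxb site had 4.00 against 2.48, a log2 ratio of 0.69 (0.08 to 1.31), and the Hoxd site 2.37 against 1.49, or 0.67 (-0.29 to 1.72). The other 3 Hoxb pairs had 0.49, 0.21 and 0.08, with intervals that include 0. All 6 intervals inside include 0.22.

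**Figure D3:**
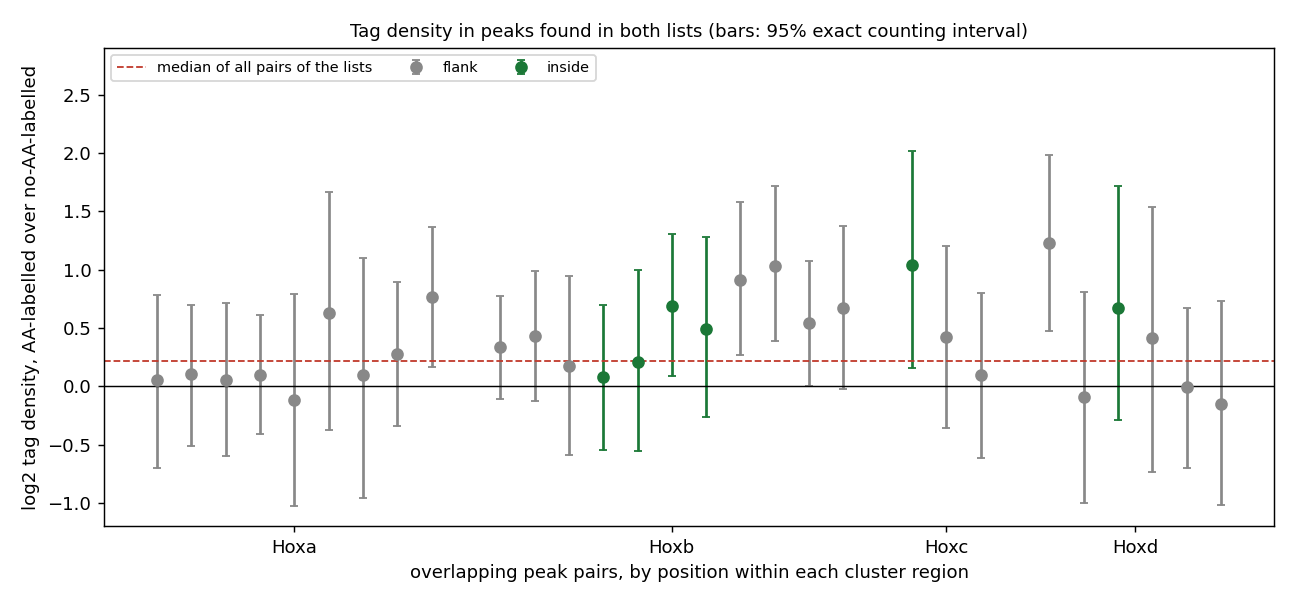
Log2 ratio of tag density, AA-labelled over no-AA-labelled (vertical axis), for the 29 pairs of overlapping peaks at the 4 clusters, in order of position. Green points lie inside a cluster and grey points in a flank, bars are 95% exact counting intervals, and the dashed line is the median of all pairs, 0.22. The 6 points inside run from 0.08 to 1.04, and the 4 pairs of the high flank of Hoxb run from 0.55 to 1.03.

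In the flanks the highest ratio belonged to chr2:74348711-74349369 in the low flank of Hoxd, at -131 kb from the low end of the window. It had 35 tags at 16.38-fold in the AA-labelled list, the highest fold of any member, and 29 tags at 7.23-fold in the other, at a log2 ratio of 1.22 (0.47 to 1.99). The high flank of Hoxb had 4 pairs, all above the median of the lists. They were chr11:96308254-96310035 at 1.03 (0.39 to 1.71) with 83 against 27 tags, chr11:96251520-96252857 at 0.91 (0.27 to 1.58) with 55 against 34, chr11:96431302-96432602 at 0.67 and chr11:96387374-96388647 at 0.55. The first 2 of these and the Hoxd pair have intervals above 0.22, without adjustment for the choice among 29 pairs.

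Most of Hoxa's flank pairs were close to equal. Its highest ratio was 0.77 (0.17 to 1.37) at chr6:52411826-52413105 and its lowest -0.12 (-1.03 to 0.79) at chr6:52282676-52283768, and 6 of 9 lay between -0.12 and 0.10. The lowest in Hoxd was -0.16 (-1.02 to 0.73) at chr2:74745049-74746386 and in Hoxc 0.10 at chr15:102985475-102986909. The lowest pair of Hoxb was inside, at 0.08 (-0.55 to 0.70).

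The 3 flank peaks of highest fold were then taken for each list and cluster. In the Hoxa flanks the AA-labelled list was led by chr6:52289529-52290291 at 11.64-fold, chr6:52026785-52027780 at 11.56-fold and chr6:51922741-51923496 at 11.13-fold. The no-AA-labelled list was led there by chr6:52300157-52300923 at 10.10-fold, followed by chr6:51915229-51915649 and chr6:52401663-52402145, both at 9.78-fold. Only the leader of each list was shared among these 6 peaks.

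In the Hoxb flanks the AA-labelled leaders were chr11:96431302-96432602 at 12.01-fold, chr11:96302701-96303496 at 11.29-fold and chr11:96387374-96388647 at 11.03-fold, all in the high flank. The no-AA-labelled leaders were chr11:95913285-95913913 at 10.18-fold, chr11:95845877-95846414 at 8.03-fold and chr11:96379498-96380575 at 7.51-fold. So the AA-labelled leaders were all beyond the end where RefSeq's order has Hoxb1, and 2 of the 3 no-AA-labelled leaders were on the other side. Hoxc was led by chr15:102923817-102924779 at 11.70-fold, chr15:103049908-103050542 at 10.75-fold and chr15:102725023-102725844 at 7.76-fold in the AA-labelled list. In the no-AA-labelled list it was led by chr15:102649670-102650300 at 10.67-fold, chr15:102674538-102675271 at 8.46-fold and chr15:102923828-102924664 at 7.58-fold. The last of these and the AA-labelled leader of Hoxc are the same shared site, with summits 212 bp apart.

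The Hoxd flanks were led by the site at 16.38-fold, followed by chr2:74458170-74459022 at 10.01-fold and chr2:74738153-74739056 at 9.90-fold. The no-AA-labelled leaders were chr2:74681734-74682325 at 8.89-fold, chr2:74745763-74746325 at 8.75-fold and chr2:74303303-74303799 at 8.33-fold. Over all flanks a fold of at least 10 was reached by 10 of 60 AA-labelled and 3 of 48 no-AA-labelled peaks, and a p of at most 1e-10 by 13 and 4. The AA-labelled shares of 16.7% (8.29% to 28.5%) and 21.7% (12.1% to 34.2%) stand beside 21.7% and 22.9% of the whole list. The no-AA-labelled shares of 6.25% (1.31% to 17.2%) and 8.33% (2.32% to 20%) stand beside 10.4% and 18.4%. All 4 shares lay below their list's, and all 4 intervals include it.

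The sixth comparison looked at where no peak was called. In Hoxc and Hoxd the middle of the cluster was empty in both lists. That stretch ran over 67.2 kb in Hoxc (chr15:102781519-102848719) and 87.1 kb in Hoxd (chr2:74514762-74601837), wholly inside the windows. In Hoxa and Hoxb it ran over the high end and out of the window, for 51.6 kb (chr6:52171069-52222692) and 75.3 kb (chr11:96176249-96251519). In Hoxb that is the end with Hoxb1, the low-numbered side, and in Hoxa the side of Hoxa13.

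Stretches of these lengths were common. Of the 93724 stretches between peaks of either list, 11.6% were as long as that of Hoxa, 6.72% as that of Hoxb, 7.96% as that of Hoxc and 5.42% as that of Hoxd, and the last class made up 32.0% of the genome length. In the AA-labelled list alone the longest stretches were these same 4. In the no-AA-labelled list alone they were 117.4 kb at Hoxa, 164.1 kb at Hoxb, 74.3 kb at Hoxc and 107.7 kb at Hoxd, matched by 6.23%, 3.46%, 13% and 7.22% of that list's stretches. They held 5, 8, 3 and 3 AA-labelled peaks, and the 4 AA-labelled stretches held 0 no-AA-labelled peaks. A stretch with none was common, at 33.3%, 32.3%, 32.4% and 32.6% of AA-labelled stretches of at least the lengths at Hoxa, Hoxb, Hoxc and Hoxd. Among no-AA-labelled stretches of at least the same length, 3.15%, 0.272%, 13.7% and 12.6% held as many AA-labelled peaks.

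The stretch on the low side of Hoxb had the most peaks of the other list among these 4, and it was singled out after its values were seen. It runs over chr11:95913914-96078051, and 5 of its 8 AA-labelled peaks lay in the flank and 3 in the cluster. Of the 2206 no-AA-labelled stretches of at least that length, 6 held as many, and the median held 1. The 8 peaks were of moderate strength, at 3.73-fold to 9.29-fold with 13 to 83 tags and a best score of 88.9, so none had a p as low as 1e-10. In RefSeq's gene order this is the side of Hoxb13, with Ttll6 and Calcoco2 as the next genes. At Hoxa the stretch with 5 AA-labelled peaks was chr6:52151490-52268847, on the side of Hoxa13 and Evx1.

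**Figure D4:**
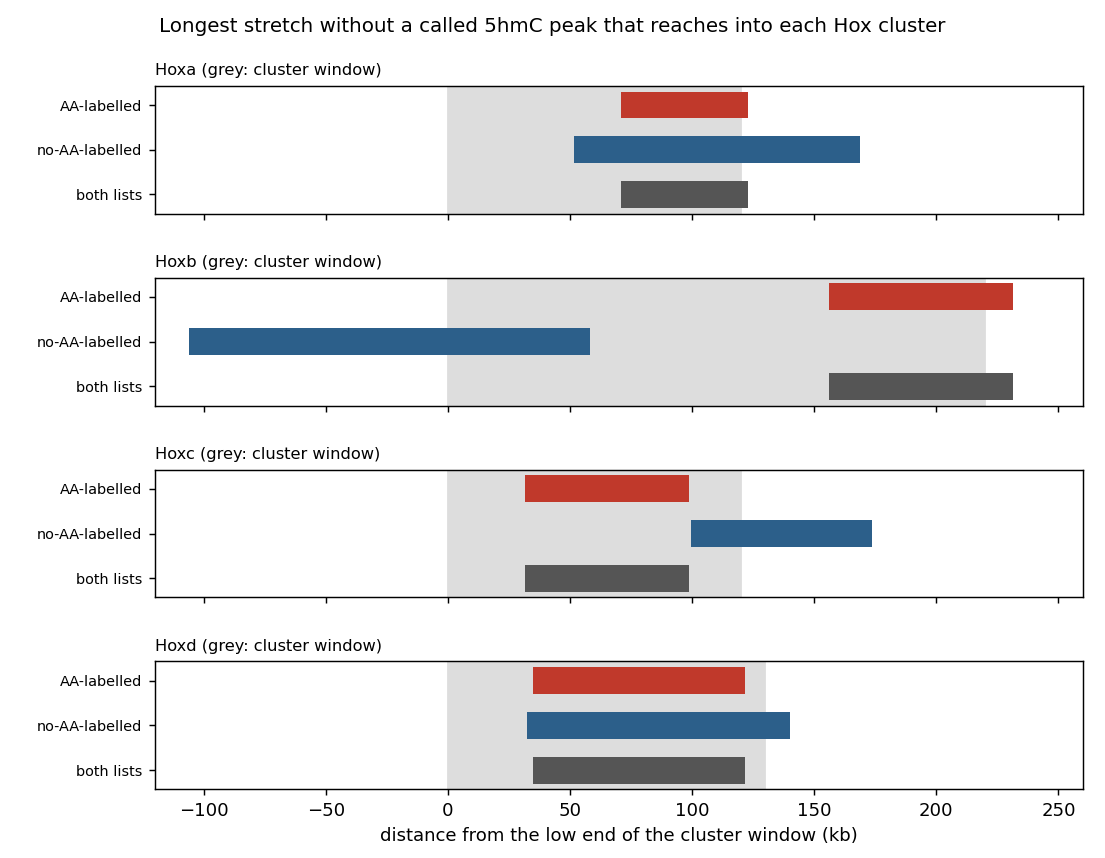
The longest stretch without a called peak that reaches into each cluster, by distance from the low end of the window (horizontal axis, kb), for the AA-labelled list, the no-AA-labelled list and both together. Grey marks the window. The no-AA-labelled bars are longer than the AA-labelled ones in all 4 clusters, from 74.3 to 164.1 kb against 51.6 to 87.1 kb.

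The nearest peaks outside, by midpoint, are among the flank peaks already counted above. How often the AA-labelled one is the nearer at window ends across the genome is not given here. It was the nearer at 7 of 8 cluster ends. At 5 of these ends the lists had different peaks, and at 4 of the 5 the distances were over 30 kb apart. At Hoxb the nearest AA-labelled peak below the window was 5.18 kb away (chr11:96013677-96015972) and the nearest no-AA-labelled one 106.4 kb away (chr11:95913285-95913913). Above Hoxa the distances were 3.31 kb (chr6:52222693-52223918) and 49.2 kb (chr6:52268848-52269566). Below Hoxc they were 1.43 kb (chr15:102747863-102749286) and 44.6 kb (chr15:102704932-102705876), and above Hoxc 20.7 kb (chr15:102889970-102891529) and 54.2 kb (chr15:102923828-102924664). Above Hoxd they were 5.89 kb (chr2:74615519-74616254) and 10.4 kb (chr2:74620112-74620720).

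At the other 3 ends the lists met at the same site, so the distances were nearly equal, and below Hoxa the no-AA-labelled one was the shorter. There it lay 11.5 kb and 10.1 kb away (chr6:52086935-52090021 with 77 tags and chr6:52089044-52090678 with 59 tags), above Hoxb 12.2 kb and 12.3 kb away (chr11:96251520-96252857 and chr11:96251756-96252764) and below Hoxd 2.20 kb and 2.27 kb away (chr2:74477308-74478295 and chr2:74477372-74478086).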

How the data were processed

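The deposited data were 2 lists of 5hmC-enriched regions (peaks), 1 per library. Per the submitters' processing notes, the authors used BWA 0.5.9-r16, MACS 1.4.2 and build mm9. Each library was called alone with no control, at a p cutoff of 1e-05 and with a regional background of 10000 bp, and 1 tag was kept per position, per the file headers. The deposited tag counts are whole numbers, not scaled to depth. The deposited score is 10 times the −log10 of the p-value, and the fold enrichment is a ratio to the caller's own background, both as the authors' caller gave them, library by library.

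Peaks were placed by midpoint in the 4 windows and their 200-kb flanks. Sharing means an overlap of 1 bp or more with any peak in the opposite list. In pairs where each peak met only 1 of the other list, tags were divided by length in kb and by kept tags per 1000000. Background values came from windows of each cluster's length laid end to end over the autosomes and chromosome X. Intervals are 95% exact intervals (Poisson for counts, Clopper-Pearson for shares, conditional on the sum for ratios, order statistics for medians), and they cover counting error only, or for medians the spread over peaks. Each group has 1 library, so no test was made. Python 3.11.15, pandas 2.3.3, NumPy 2.4.6 and SciPy 1.17.1 were used, and the code was tested on simulated lists with known answers.

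The named regions were every peak inside a cluster, and in the flanks the 3 peaks of highest fold enrichment per list and cluster, the nearest peak on each side, and the pairs with the highest and lowest density ratio. The members, lists and rules were chosen with earlier results of these data known. Promoter sequences are from RefSeq (GRCm38.p6), another build than that of the peaks, so no peak was placed on a gene. Alternatives were stricter cutoffs, placement by overlap, flanks of 100 and 400 kb, other sharing rules, other tag measures and exchanged lists.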

Additional observations from a re-analysis of the deposited data

How the results depend on the processing

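With a p of at most 1e-10 in place of the authors' cutoff, the log2 density of no-AA-labelled peaks inside over flanks moved from -0.82 to 0.44 and that of covered length from -1.03 to 0.40, on 2 peaks inside and 4 in the flanks. The same cutoff moved the log2 ratio of peak numbers in the flanks from 0.32 to 1.70 (13 against 4 peaks), a fold of at least 10 moved it to 1.74 (10 against 3), and shared percentages moved from 60 to 100 (2 of 2, no-AA-labelled, inside) and from 38.3 to 15.4 (2 of 13, AA-labelled, flanks). No no-AA-labelled peak inside had a fold of at least 10, so ratios that need one have no value there. If the headers' names are taken instead, the log2 ratio of peak numbers becomes -1.0 inside and -0.32 in the flanks, and that of tag density -0.58 and -0.28. The median log2 density ratio of pairs, 0.58 inside and 0.28 in the flanks, became 1.18 and 0.69 for tags per peak, -0.045 and -0.35 without scaling, 0.056 and -0.25 when scaled to tags in peaks, and in the flanks 0.081 for fold enrichment. The longest empty stretches of Hoxa, Hoxb, Hoxc and Hoxd grew to 262, 371, 173 and 538 kb at the stricter p, and to 262, 196, 198 and 612 kb with a fold of at least 10, since fewer peaks remain. For the other moved values the cause was not tested. The remaining 38 of 63 alternative values stayed within the interval of the main value. Among these, placement by overlap and sharing by 50% of the shorter peak or within 500 bp gave exactly the main values. Many of the intervals are also wide, so the tally is a weak check. Lists of equal length and leaving out Hoxb were chosen after seeing the data. No paired analysis was possible because only 1 library stands for either group, which also means that none could be omitted in turn. Counting error alone spans 4.80 to 18.4 around 10 peaks, and the variation between libraries of 1 group was not measured.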

Other observations

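Peak density was also measured farther out. In the 50-kb steps from 200 to 400 kb from the cluster ends the AA-labelled list had 42.5, 25.0, 37.5 and 30.0 peaks per Mb and the no-AA-labelled list 37.5, 30.0, 27.5 and 35.0, where the genome had 21.9 and 24.2. The 1-Mb windows that hold the clusters had 32 AA-labelled against 29 no-AA-labelled peaks on chromosome 6, 41 against 34 on chromosome 11, 37 against 31 on chromosome 15 and 32 against 27 on chromosome 2. Peaks per Mb over these whole chromosomes were 20.7 and 22.7 on chromosome 6, 25.5 and 26.5 on chromosome 11, 20.9 and 22.5 on chromosome 15, and 22.3 and 23.9 on chromosome 2. The AA-labelled list had the larger number in all 4 of these windows. Its lower density on the 4 chromosomes is that of the whole list, which is the shorter of the 2. The windows hold the peaks inside the clusters and flank peaks already counted above, so they are not a separate observation. The share of all 1-Mb windows with more AA-labelled peaks is not given here.

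The member with the most tags, singled out after its value was seen, was the AA-labelled peak chr15:102563735-102568331 in the low flank of Hoxc. It spanned 4597 bp with 139 tags at 5.00-fold and overlapped no peak of the other list.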
